A study of Homo sapiens with 9 samples.

Results

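The lysosomal genes described here are 51 of the 26485 genes listed for MDA-MB-231, a widely used cell line of human triple-negative breast cancer. They were chosen by name for their role in the lysosome: 29 enzymes and cofactors of degradation, 7 membrane proteins, 12 subunits and accessory proteins of the vacuolar proton pump (V-ATPase), and the 3 transcription factors TFEB, TFE3 and MITF. RNA was sequenced from cells stably carrying a nonspecific (NS) shRNA, ASAH1 shRNA #1 or ASAH1 shRNA #2, with 3 libraries in each group. ASAH1 encodes acid ceramidase, itself a lysosomal enzyme, which splits ceramide into sphingosine and a fatty acid. All groups were grown in the same serum-containing medium with no other treatment, all come from 1 cell line, and the series' description calls the replicates biological without saying whether they were separate cultures, so p-values measure the spread between these libraries.

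Lysosomes degrade lipids, glycans, proteins and nucleic acids with hydrolases that work at acidic pH. The V-ATPase pumps protons into the lumen, while membrane proteins export the products and protect the limiting membrane. TFEB, TFE3 and MITF bind the palindromic CACGTG core of the CLEAR element, which occurs near the start of many lysosomal genes, and their activity is set largely by phosphorylation and nuclear entry rather than by mRNA level. In tumor cells the lysosome also serves as a signaling platform for mTORC1 and as a store of sphingolipids and cholesterol.

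The CLEAR core is shown here because it is the sequence feature that the transcription factors among these genes share with their known targets. RefSeq promoter sequences (GRCh38.p14, 250 bases before to 50 after the start) matched 37 of the 51 genes. CACGTG, which reads the same on both strands, occurred in 9 of the 37 (24.3%) and in 8.77% of all genes with such a window. The longer form TCACGTG, searched on both strands and overlapping the first, occurred in the same 9 genes (4.49% of all genes), and the palindrome TCACGTGA in 5 (13.5%, against 1.18% of all genes). The 9 genes were ARSB, ATP6V0B, ATP6V0D1, CLN3, CTSA, CTSD, LAMP1, MCOLN1 and NEU1. The 30-base windows below are those of the 5 genes with the palindrome and of CTSD and ATP6V0B, which lead the enzymes by level and the proton pump genes by increase. Capitals mark the core with the flanking T and A where present.
ATP6V0D1, chr16:67481199-67481228, minus strand: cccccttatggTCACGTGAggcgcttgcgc
CLN3, chr16:28492068-28492097, minus strand: tgggggaacacgcgggtgctgTCACGTGAt
CTSA, chr20:45891298-45891327, plus strand: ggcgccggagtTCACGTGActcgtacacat
LAMP1, chr13:113297199-113297228, plus strand: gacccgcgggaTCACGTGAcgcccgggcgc
MCOLN1, chr19:7522571-7522600, plus strand: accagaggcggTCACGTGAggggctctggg
CTSD, chr11:1763957-1763986, minus strand: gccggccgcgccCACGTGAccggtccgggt
ATP6V0B, chr1:43974909-43974938, plus strand: gtaccggcgcaTCACGTGggcgagttaggt
The core ended 53 bases before the start in ATP6V0D1, 19 in CTSA, 22 in LAMP1, 35 in MCOLN1, 41 in CTSD and 33 in ATP6V0B, and in CLN3 it lay across 1 of its RefSeq starts. LAMP1 had the core at 6 positions of its window. A match is a description of these letters and not evidence of binding. MANBA, ATP6V1A, CTSB, ATP6V1H, ATP6V1B2, ATP6V1C1, PSAP, HGSNAT, LAMP2, NAGLU, ARSA, HEXA, CTSS and SGSH had no window.

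Reads on genes came to between 30989598 and 34867548 per NS shRNA library, between 23806003 and 39791698 with shRNA #1 and between 35653318 and 49659106 with shRNA #2. The deposited normalized counts are reads divided by a size factor per library, set separately in the table of each ASAH1 shRNA. Each shRNA was therefore compared with NS shRNA inside its own table, by limma on log2(normalized count + 1) with Benjamini-Hochberg adjustment over all genes tested at a threshold of 0.05. All 51 genes passed the minimum mean normalized count of 10 in both tables, and the fewest reads of any of them in a library were 231, for MANBA. ASAH1 itself had a normalized count of 4436, 4512 and 4518 in the NS shRNA libraries and 1268, 1365 and 1348 with shRNA #1 (log2 fold change -1.76). With shRNA #2 it went from 4787, 4898 and 4871 to 780, 807 and 762 (log2 fold change -2.63), so the targeted gene was low in every library labelled as a knockdown. VIM, CD44, EGFR and AXL, known markers of this line, were abundant in all libraries. ESR1 and PGR never passed a normalized count of 2.67, and ERBB2 lay between 1955 and 3677. Of 6 markers of other cell types, ALB, CD3E, PTPRC and VWF stayed at or below 11.3 and PECAM1 at or below 108. CD14 lay between 870 and 1065 with NS shRNA, between 207 and 235 with shRNA #1 and between 1024 and 1196 with shRNA #2 (938 to 1150 with NS shRNA in that table). The summed level of these 6 was 975 to 1179, 267 to 318 and 1100 to 1252 in the same order, and its part in the results below was not tested.

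The summed share of reads on the 51 genes was lower with both ASAH1 shRNAs. The 51 genes together took 1.29% to 1.33% of the reads on genes in the NS shRNA libraries, 1.06% to 1.08% with shRNA #1 and 0.940% to 0.957% with shRNA #2, so the 3 groups did not overlap. CTSD, PSAP and CTSB held between 41.5% and 51.6% of these reads. Without those 3 genes, the other 48 took 0.635% to 0.646% with NS shRNA, 0.619% to 0.621% with shRNA #1 and 0.496% to 0.504% with shRNA #2. CTSD, PSAP and CTSB thus made up 91.5% of the drop in the group mean with shRNA #1 and 60.4% of that with shRNA #2. By role, the mean share of the enzymes and cofactors went from 1.01% to 0.748% and 0.682% with shRNA #1 and #2. That of the membrane proteins went from 0.125% to 0.142% and 0.104%, and that of the V-ATPase genes from 0.154% to 0.159% and 0.146%. The transcription factors went from 0.0179% to 0.0227% and 0.0192%. The drop with shRNA #1 was thus one of the enzymes and not of every role, and CTSD held the largest part of it. With shRNA #1 the mean normalized count of CTSD went from 139033 to 80084. That of PSAP went from 52270 to 46273 and that of CTSB from 24590 to 17636. In bulk RNA, a lower level in each cell and fewer cells expressing a gene cannot be told apart.

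Gene by gene, decreases outnumbered increases. With shRNA #1, 27 of the 51 genes (52.9%) were lower and 11 (21.6%) higher, where 33.3% of all 14341 genes tested were lower and 32.8% higher. With shRNA #2, 29 (56.9%) were lower and 7 (13.7%) higher, where 33.4% of all 14250 genes tested were lower and 33.5% higher. The median log2 fold change of the 51 genes was -0.18 with each shRNA, beside 0.00 and 0.01 over all genes tested. Most changes were below 0.5 on the log2 scale. In all, 9 genes with shRNA #1 and 16 with shRNA #2 both passed the test and fell by 0.5 or more, and 4 and 2 rose by as much. The share of all genes tested at this cutoff was not counted. Both shRNAs lowered 20 of the genes (39.2%, against 20.5% of the 14075 genes tested in both comparisons) and raised 5 (9.80%, against 20.0%). The comparisons share the NS shRNA libraries, so these joint counts are descriptions. GLA, ARSA, CTSC, CTSL and ATP6V1H passed with neither shRNA, although each passed with at least 1 of them under some alternative, as given with these genes or with the alternatives.

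**Figure D1:**
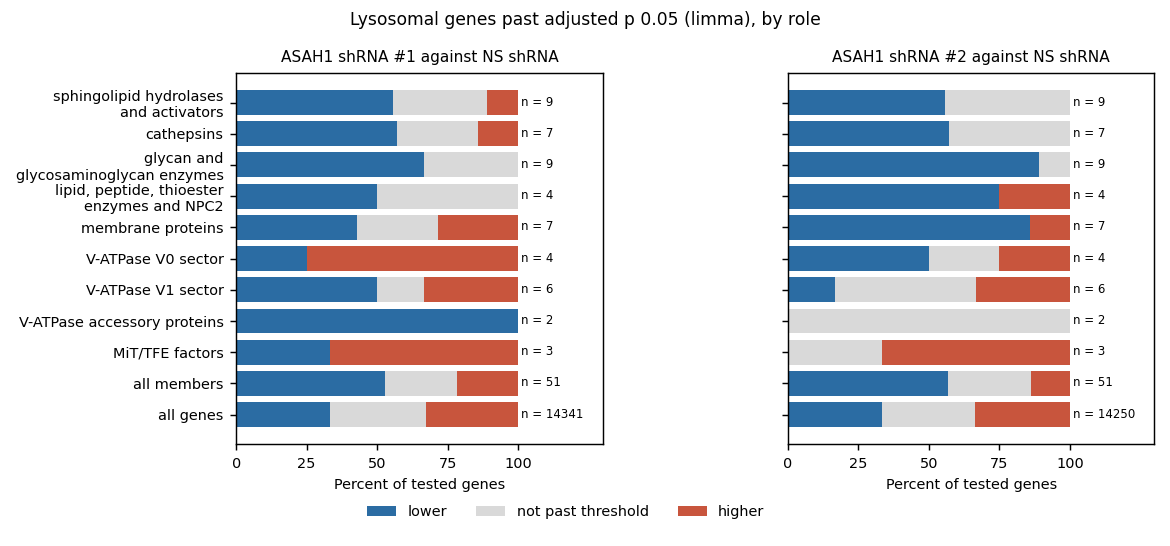
Share of tested genes (x axis, percent) that were lower, not past an adjusted p of 0.05, or higher than with NS shRNA, by role (rows, with n genes) for each ASAH1 shRNA. Enzymes of glycan breakdown are mostly blue (6 of 9 lower with shRNA #1, 8 of 9 with shRNA #2), while the V-ATPase sectors hold both colors and all genes split nearly evenly.

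Levels spanned a wide range within the lysosome. Per kilobase of the MANE transcript, CTSD, the main aspartic protease, was highest with NS shRNA at 67660 ± 2904 normalized counts (SD, n = 3). PSAP, the precursor of the saposins that present sphingolipids to their hydrolases, followed at 19020 ± 827. NPC2, which binds cholesterol in the lumen, reached 11440 ± 531 and CTSZ, a cysteine carboxypeptidase, 11300 ± 892, a difference within their spread. The lowest level was that of MITF, at 134 ± 7.94, followed by MANBA at 168 ± 4.69, ARSB at 177 ± 5.68 and TFEB at 181 ± 8.97, and the SD ranges of these last 3 genes overlapped. TFE3, at 1437 ± 60.3, was the most abundant of the transcription factors.

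**Figure D2:**
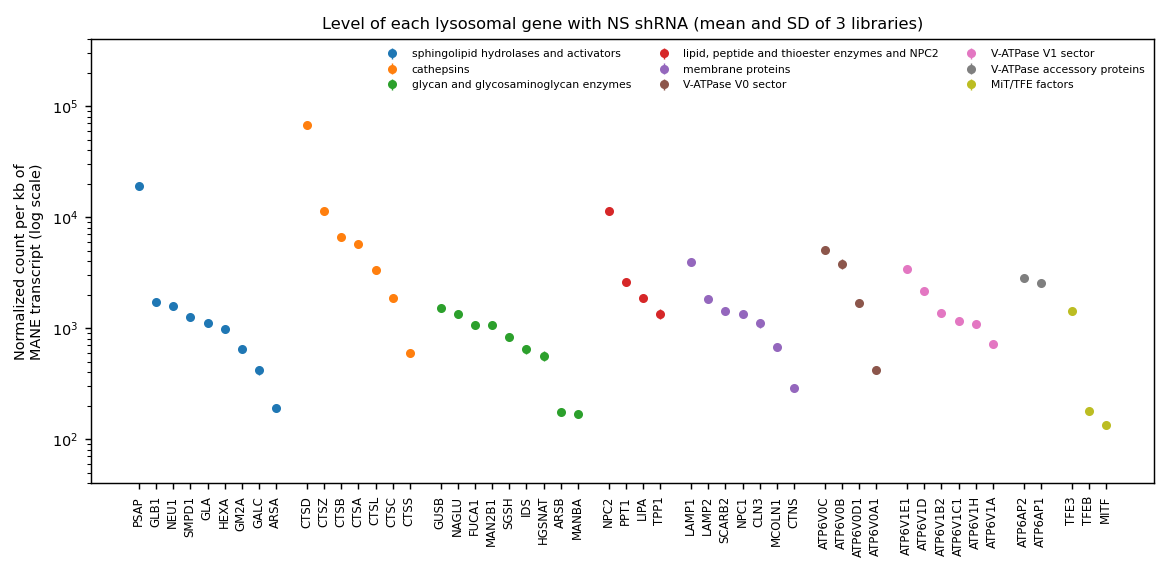
Normalized count per kilobase of MANE transcript (y axis, log scale) of each of the 51 genes with NS shRNA, grouped by role (x axis), as mean and SD of 3 libraries. CTSD stands highest at 67660 and MITF lowest at 134, and PSAP comes second at 19020.

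The sphingolipid enzymes work in the pathway to which acid ceramidase belongs. Of 9 genes, 5 were lower and 1 was higher with shRNA #1, and 5 were lower and 0 higher with shRNA #2. Over all genes tested, 33.3% were lower and 32.8% higher with shRNA #1, and 33.4% and 33.5% with shRNA #2. The largest decrease was that of SMPD1 (chromosome 11, 6390440 to 6394998, plus strand, hg38), which encodes acid sphingomyelinase and so makes the ceramide that acid ceramidase uses. SMPD1 had normalized counts of 3079, 3210 and 2906 with NS shRNA and 1885, 1967 and 2005 with shRNA #1, a log2 fold change of -0.65 (SE 0.05, limma adjusted p = 6.14e-06). In the table of shRNA #2 it had 3322, 3485 and 3134 with NS shRNA and 1452, 1366 and 1460 with the shRNA, a log2 fold change of -1.21 (SE 0.06, limma adjusted p = 1.07e-07). No knockdown library reached the lowest NS shRNA library, and SMPD1 stood at 63.7% of the NS shRNA mean with shRNA #1 and 43.0% with shRNA #2.

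GM2A (chromosome 5, 151212150 to 151270440, plus strand) encodes the activator that lifts GM2 ganglioside to hexosaminidase A. Its normalized count was 2277, 2220 and 2482 with NS shRNA and 1528, 1480 and 1456 with shRNA #1. In the other table it was 2457, 2410 and 2676 with NS shRNA and 1269, 1410 and 1179 with shRNA #2. The groups did not overlap in either table, at log2 fold changes of -0.64 (SE 0.06, limma adjusted p = 9.22e-06) and -0.97 (SE 0.08, limma adjusted p = 1.88e-06). GLB1, the beta-galactosidase that removes terminal galactose, fell by 0.36 and 0.84 on the log2 scale with shRNA #1 and #2. PSAP fell by 0.18 and 0.44, and its call with shRNA #1 was lost without NS shRNA replicate 2 (adjusted p = 0.0541) or without shRNA #1 replicate 1 (adjusted p = 0.0535).

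The other sphingolipid genes did not change with both shRNAs. GALC, which cleaves galactosylceramide, was lower with shRNA #1 (log2 fold change -0.25) and did not pass with shRNA #2 (0.06), and the call with shRNA #1 was lost without NS shRNA replicate 2 (adjusted p = 0.0531). HEXA, the alpha chain of hexosaminidase A, was lower with shRNA #2 (-0.47) and did not pass with shRNA #1 (-0.10). NEU1, the lysosomal sialidase, was higher with shRNA #1 (0.41) and did not pass with shRNA #2 (-0.09). GLA, the alpha-galactosidase of globotriaosylceramide breakdown, had log2 fold changes of -0.12 and -0.13, and ARSA, which removes sulfate from sulfatide, had -0.15 and 0.16, none of them past the threshold. GLA passed with both shRNAs without NS shRNA replicate 3 (-0.16 and -0.17, limma adjusted p = 0.0460 and 0.0496). ARSA passed with shRNA #2 without shRNA #2 replicate 2, at a log2 fold change of 0.27 in place of 0.16 (limma adjusted p = 0.00889).

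Among 7 cathepsins, 4 were lower with both shRNAs, 1 was higher with shRNA #1 and 0 were higher with shRNA #2. Among all genes tested, 20.5% were lower with both, 32.8% higher with shRNA #1 and 33.5% higher with shRNA #2. CTSD, singled out after its values were seen because of its level, had 144427, 140052 and 132621 normalized counts with NS shRNA and 78363, 79090 and 82800 with shRNA #1. In the shRNA #2 comparison it had 155843, 152028 and 142992 with NS shRNA and 117221, 109287 and 117770 with shRNA #2. The decrease was larger with shRNA #1 (log2 fold change -0.80, SE 0.05, limma adjusted p = 7.35e-07) than with shRNA #2 (-0.39, SE 0.06, limma adjusted p = 0.000111). In GENCODE v44 other transcripts of the same strand cover 27.3% of the exonic bases of CTSD. CTSB, a cysteine protease, fell by 0.48 and 0.66 and CTSZ by 0.48 and 0.43 with shRNA #1 and #2. CTSA, the serine carboxypeptidase that stabilizes NEU1 and GLB1, fell by 0.17 and 0.80. CTSS, a cysteine protease best known from antigen-presenting cells, was higher with shRNA #1 (0.46) and did not pass with shRNA #2 (-0.02). CTSC, an aminopeptidase that activates serine proteases (0.03 and -0.11), and CTSL, a cysteine endopeptidase (-0.13 and -0.06), did not pass with either, but CTSL passed with shRNA #1 without NS shRNA replicate 3 (-0.19, limma adjusted p = 0.0134).

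Enzymes of glycan and glycosaminoglycan breakdown gave 6 lower genes of 9 with shRNA #1 and 8 of 9 with shRNA #2, and 0 higher with either. The shares of all genes tested were 33.3% and 33.4% lower, and 32.8% and 33.5% higher, with shRNA #1 and #2. FUCA1 (chromosome 1, 23845077 to 23868290, minus strand), the fucosidase, had normalized counts of 2242, 2095 and 2220 with NS shRNA and 1512, 1514 and 1471 with shRNA #1. In the other table it had 2419, 2274 and 2394 with NS shRNA and 1216, 1336 and 1262 with shRNA #2. The groups did not overlap, and the log2 fold changes were -0.54 (SE 0.05, limma adjusted p = 1.29e-05) and -0.89 (SE 0.06, limma adjusted p = 7.94e-07). GUSB, beta-glucuronidase, fell by 0.25 and 0.83, HGSNAT, the membrane acetyltransferase of heparan sulfate breakdown, by 0.36 and 0.96, and ARSB, which removes sulfate from dermatan and chondroitin sulfate, by 0.53 and 0.38.

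A pair of these genes, NAGLU and MANBA, responded very differently to the shRNAs and were singled out after their values were seen. NAGLU, an N-acetylglucosaminidase of heparan sulfate breakdown, had 3451, 3526 and 3017 normalized counts with NS shRNA and 3031, 3083 and 3256 with shRNA #1, and these groups overlapped (log2 fold change -0.09, SE 0.07, limma adjusted p = 0.253). Without NS shRNA replicate 3, NAGLU passed with shRNA #1 at -0.16 (limma adjusted p = 0.0234). In the shRNA #2 comparison NAGLU had 3723, 3828 and 3253 with NS shRNA and 1794, 1507 and 1732 with shRNA #2 (log2 fold change -1.10, SE 0.08, limma adjusted p = 1.36e-06). MANBA, beta-mannosidase, showed the opposite order. It had 656, 670 and 693 normalized counts with NS shRNA and 309, 332 and 369 with shRNA #1 (log2 fold change -1.00, SE 0.08, limma adjusted p = 5.03e-06). With shRNA #2, MANBA had 588, 544 and 624 against 708, 728 and 748 with NS shRNA (log2 fold change -0.32, SE 0.08, limma adjusted p = 0.00444).

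The remaining glycan enzymes passed with 1 shRNA each. SGSH, a sulfatase of heparan sulfate breakdown, was lower with shRNA #2 (log2 fold change -0.59) and did not pass with shRNA #1 (0.04), as was MAN2B1, the acid alpha-mannosidase (-0.23 and -0.11). IDS, iduronate sulfatase, was lower with shRNA #1 (-0.26) and did not pass with shRNA #2 (0.17). MAN2B1 passed with shRNA #1 without NS shRNA replicate 3 (-0.14, limma adjusted p = 0.0290). IDS passed as higher with shRNA #2 without NS shRNA replicate 3 (0.25, limma adjusted p = 0.0109) or shRNA #2 replicate 3 (0.24, limma adjusted p = 0.0214). In GENCODE v44 other transcripts of the same strand cover 75.9% of the exonic bases of IDS, 12.9% of those of NAGLU and 21.2% of those of MAN2B1, so reads there may have been divided between genes or set aside in counting.

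LIPA (chromosome 10, 89213569 to 89414557, minus strand) encodes the acid lipase that hydrolyzes cholesteryl esters and triglycerides. Its normalized count was 4485, 4760 and 4823 with NS shRNA and 3253, 3244 and 3047 with shRNA #1. In the other table it was 4839, 5167 and 5200 with NS shRNA and 2868, 2914 and 2747 with shRNA #2. LIPA fell by 0.56 (SE 0.05, limma adjusted p = 1.0e-05) and 0.83 (SE 0.06, limma adjusted p = 5.72e-07) on the log2 scale, with no overlap of groups. NPC2 (chromosome 14, 74476192 to 74494177, minus strand) had 9890, 9224 and 9069 with NS shRNA and 5291, 5379 and 5451 with shRNA #1. In the shRNA #2 comparison NPC2 had 10672, 10013 and 9778 with NS shRNA and 4865, 5270 and 5036 with shRNA #2. It was at 57.2% of the NS shRNA mean with shRNA #1 (log2 fold change -0.80, SE 0.05, limma adjusted p = 6.79e-07) and at 49.8% with shRNA #2 (-1.01, SE 0.06, limma adjusted p = 1.81e-07). TPP1, a tripeptidyl peptidase, was lower with shRNA #2 (-0.57) and did not pass with shRNA #1 (0.02). PPT1, which removes palmitate from proteins, was the 1 enzyme higher with shRNA #2 (0.24) and did not pass with shRNA #1 (0.05). Leaving out NS shRNA replicate 3, shRNA #2 replicate 2 or shRNA #2 replicate 3 made 2 enzymes higher with shRNA #2, through IDS or ARSA.

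**Figure D3:**
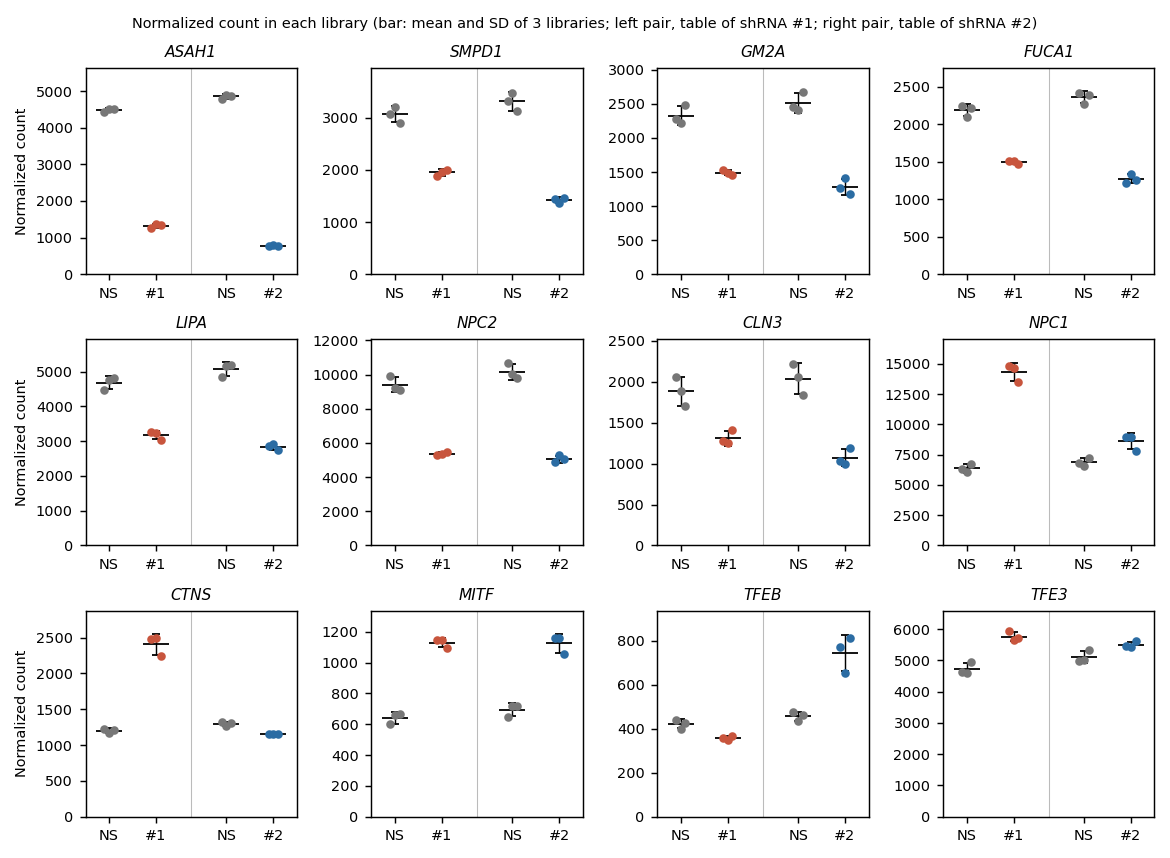
Normalized count (y axis, from 0) in each library for ASAH1 and 11 lysosomal genes, with the NS shRNA libraries in gray beside shRNA #1 (red) in the left pair and shRNA #2 (blue) in the right pair, each pair on the scale of its own table. Bars give mean and SD of 3 libraries. SMPD1, GM2A, FUCA1, LIPA, NPC2 and CLN3 lie below NS shRNA with both shRNAs, NPC1 and MITF lie above, and CTNS and TFEB move in opposite directions.

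NPC1, the membrane partner of NPC2 in cholesterol export, went the other way. NPC1 was singled out after its values were seen. It had normalized counts of 6278, 6064 and 6726 with NS shRNA and 14824, 14613 and 13508 with shRNA #1, 2.25-fold the NS shRNA mean (log2 fold change 1.17, SE 0.06, limma adjusted p = 1.84e-07). In the other table NPC1 had 6775, 6582 and 7252 with NS shRNA and 8994, 8994 and 7840 with shRNA #2, 1.25-fold (log2 fold change 0.32, SE 0.07, limma adjusted p = 0.00153). Every knockdown library lay above every NS shRNA library.

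CTNS (chromosome 17, 3636459 to 3663103, plus strand), the cystine exporter, rose with shRNA #1 and fell slightly with shRNA #2. It had 1222, 1166 and 1216 normalized counts with NS shRNA and 2475, 2496 and 2241 with shRNA #1, 2.00-fold the mean (log2 fold change 1.00, SE 0.06, limma adjusted p = 6.97e-07). In the shRNA #2 comparison CTNS had 1319, 1266 and 1311 with NS shRNA and 1157, 1149 and 1153 with shRNA #2 (log2 fold change -0.17, SE 0.06, limma adjusted p = 0.0271). The groups did not overlap in either table, but the call with shRNA #2 was lost whichever of its 6 libraries was left out. The adjusted p was then 0.0681, 0.0508 and 0.0682 without NS shRNA replicate 1, 2 and 3, and 0.0686, 0.0532 and 0.0598 without shRNA #2 replicate 1, 2 and 3.

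CLN3 (chromosome 16, 28474111 to 28495575, minus strand), the membrane protein mutated in juvenile Batten disease, had normalized counts of 2052, 1890 and 1703 with NS shRNA and 1270, 1245 and 1412 with shRNA #1. In the other table it had 2215, 2052 and 1836 with NS shRNA and 1025, 998 and 1188 with shRNA #2. CLN3 fell by 0.52 (SE 0.08, limma adjusted p = 0.000295) and 0.93 (SE 0.09, limma adjusted p = 6.9e-06) on the log2 scale, with separate groups, and 25.3% of its exonic bases lie under another transcript of the same strand. MCOLN1, the lysosomal calcium channel, was lower with shRNA #2 (-0.64) and did not pass with shRNA #1 (-0.10).

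The abundant glycoproteins of the membrane had small log2 fold changes. LAMP1 was lower with shRNA #2 (log2 fold change -0.18) and did not pass with shRNA #1 (0.08). LAMP2 fell by 0.29 and 0.18 with shRNA #1 and #2, and its call with shRNA #2 was lost without NS shRNA replicate 2 or 3 (adjusted p = 0.0810 and 0.136) or without shRNA #2 replicate 1 or 3 (0.164 and 0.139). SCARB2, the receptor that brings glucocerebrosidase to the lysosome, fell by 0.47 and 0.22, and its call with shRNA #2 was lost without shRNA #2 replicate 3 (adjusted p = 0.0522). Of the 7 membrane proteins, 2 were higher and 3 lower with shRNA #1, and 1 was higher and 6 lower with shRNA #2, or 3 lower without shRNA #2 replicate 3. Over all genes tested, 32.8% were higher and 33.3% lower with shRNA #1, and 33.5% and 33.4% with shRNA #2. For so few genes, the counts with shRNA #1 are near those shares.

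Proton pump genes went both ways. The 12 genes gave 5 higher and 6 lower with shRNA #1, at a median log2 fold change of -0.15, and 3 higher and 3 lower with shRNA #2, at a median of 0.00. Of all genes tested, 33.3% were lower and 32.8% higher with shRNA #1, and 33.4% and 33.5% with shRNA #2. For so few genes, the 5 higher with shRNA #1 and both counts with shRNA #2 are near those shares. Whether the pump genes differed from the enzymes was not tested. In the membrane-embedded V0 sector, ATP6V0B, a proteolipid of the rotor, was higher by 0.51 and 0.45 on the log2 scale with shRNA #1 and #2. Singled out after its values were seen, ATP6V0B had 4178, 3741 and 3390 normalized counts with NS shRNA and 5157, 5190 and 5673 with shRNA #1, and in the second comparison 4508, 4061 and 3655 with NS shRNA and 5541, 5190 and 5931 with shRNA #2, with no overlap. ATP6V0D1, which couples the sectors, fell by 0.23 and 0.57. Its call with shRNA #1 was lost without NS shRNA replicate 1 or 2 (adjusted p = 0.0756 and 0.0691) or without shRNA #1 replicate 1 or 2 (0.0670 and 0.0803). ATP6V0A1, the subunit that forms the proton path, was higher with shRNA #1 (0.37) and did not pass with shRNA #2 (-0.10).

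ATP6V0C, the other proteolipid, was singled out after its values were seen. It was called higher with shRNA #1 (log2 fold change 0.16, limma adjusted p = 0.0431) and lower with shRNA #2 (-0.15, limma adjusted p = 0.0413). Its libraries overlapped in the first comparison, where ATP6V0C had normalized counts of 5962, 5516 and 5317 with NS shRNA and 6116, 5949 and 6665 with shRNA #1. In the second it had 6434, 5988 and 5733 with NS shRNA and 5572, 5376 and 5426 with shRNA #2. The call with shRNA #1 was lost without NS shRNA replicate 2 or 3 (adjusted p = 0.12 and 0.107) or shRNA #1 replicate 1 or 3 (0.0641 and 0.142). The call with shRNA #2 was lost without NS shRNA replicate 1 or 2 (0.141 and 0.0911) or without shRNA #2 replicate 1, 2 or 3 (0.0730, 0.0907 and 0.0837). Other transcripts of the same strand cover 76.3% of its exonic bases.

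In the cytosolic V1 sector, which hydrolyzes ATP, ATP6V1B2 and ATP6V1C1 were higher with both shRNAs, by 0.43 and 0.28 and by 0.25 and 0.31 on the log2 scale. ATP6V1D, part of the central stalk, fell by 0.20 and 0.17, and its call with shRNA #2 was lost without NS shRNA replicate 1 (adjusted p = 0.0547) or shRNA #2 replicate 1 (0.0639). Without either of these libraries, 1 pump gene rather than 3 was lower with shRNA #2. ATP6V1A, the catalytic subunit, and ATP6V1E1, of the outer stalk, were lower with shRNA #1 (-0.19 and -0.29) and did not pass with shRNA #2 (0.12 and 0.09). ATP6V1H, a regulatory subunit, passed with neither (-0.12 and -0.05), but did with shRNA #1 without shRNA #1 replicate 3 (-0.16, limma adjusted p = 0.0398). The accessory proteins ATP6AP1 and ATP6AP2 were lower with shRNA #1 (-0.33 and -0.24) and did not pass with shRNA #2 (-0.11 and 0.06).

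The 3 transcription factors each followed a course of their own. MITF (chromosome 3, 69739456 to 69968336, plus strand) had normalized counts of 599, 662 and 667 with NS shRNA and 1147, 1145 and 1097 with shRNA #1, and in the second comparison 646, 719 and 719 with NS shRNA and 1161, 1160 and 1054 with shRNA #2. MITF was 1.76-fold the NS shRNA mean with shRNA #1 (log2 fold change 0.81, SE 0.07, limma adjusted p = 4.4e-06) and 1.62-fold with shRNA #2 (0.70, SE 0.08, limma adjusted p = 1.76e-05), with no overlap. It stayed, with TFEB, among the least abundant of the 51 genes. TFE3 (chromosome X, 49028726 to 49043410, minus strand) had 4622, 4608 and 4958 with NS shRNA and 5925, 5656 and 5713 with shRNA #1 (log2 fold change 0.29, SE 0.05, limma adjusted p = 0.000572). In the shRNA #2 comparison TFE3 had 4987, 5002 and 5346 with NS shRNA and 5463, 5431 and 5617 with shRNA #2. These did not overlap, but the log2 fold change of 0.11 did not pass (SE 0.05, limma adjusted p = 0.0959).

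TFEB (chromosome 6, 41683978 to 41736259, minus strand) fell with shRNA #1 and rose with shRNA #2. It had normalized counts of 441, 399 and 427 with NS shRNA and 357, 349 and 368 with shRNA #1 (log2 fold change -0.24, SE 0.07, limma adjusted p = 0.0189). In the other table TFEB had 475, 434 and 460 with NS shRNA and 771, 654 and 811 with shRNA #2 (log2 fold change 0.70, SE 0.09, limma adjusted p = 7.4e-05). The groups did not overlap in either table. The call with shRNA #1 was lost without NS shRNA replicate 1 (adjusted p = 0.0596) or shRNA #1 replicate 2 (0.0707). With shRNA #2, 7 of the 9 genes with the CACGTG core were lower, 1 was higher and 1 did not pass. Of the 28 genes with a window and no core, 14 were lower and 4 higher. With shRNA #1, 5 of the 9 were lower and 2 higher, against 16 lower and 6 higher of the 28. The 14 genes without a window are left out of these counts. Calls over all genes with or without the core were not counted, and a link of the core to the changes was not tested.

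**Figure D4:**
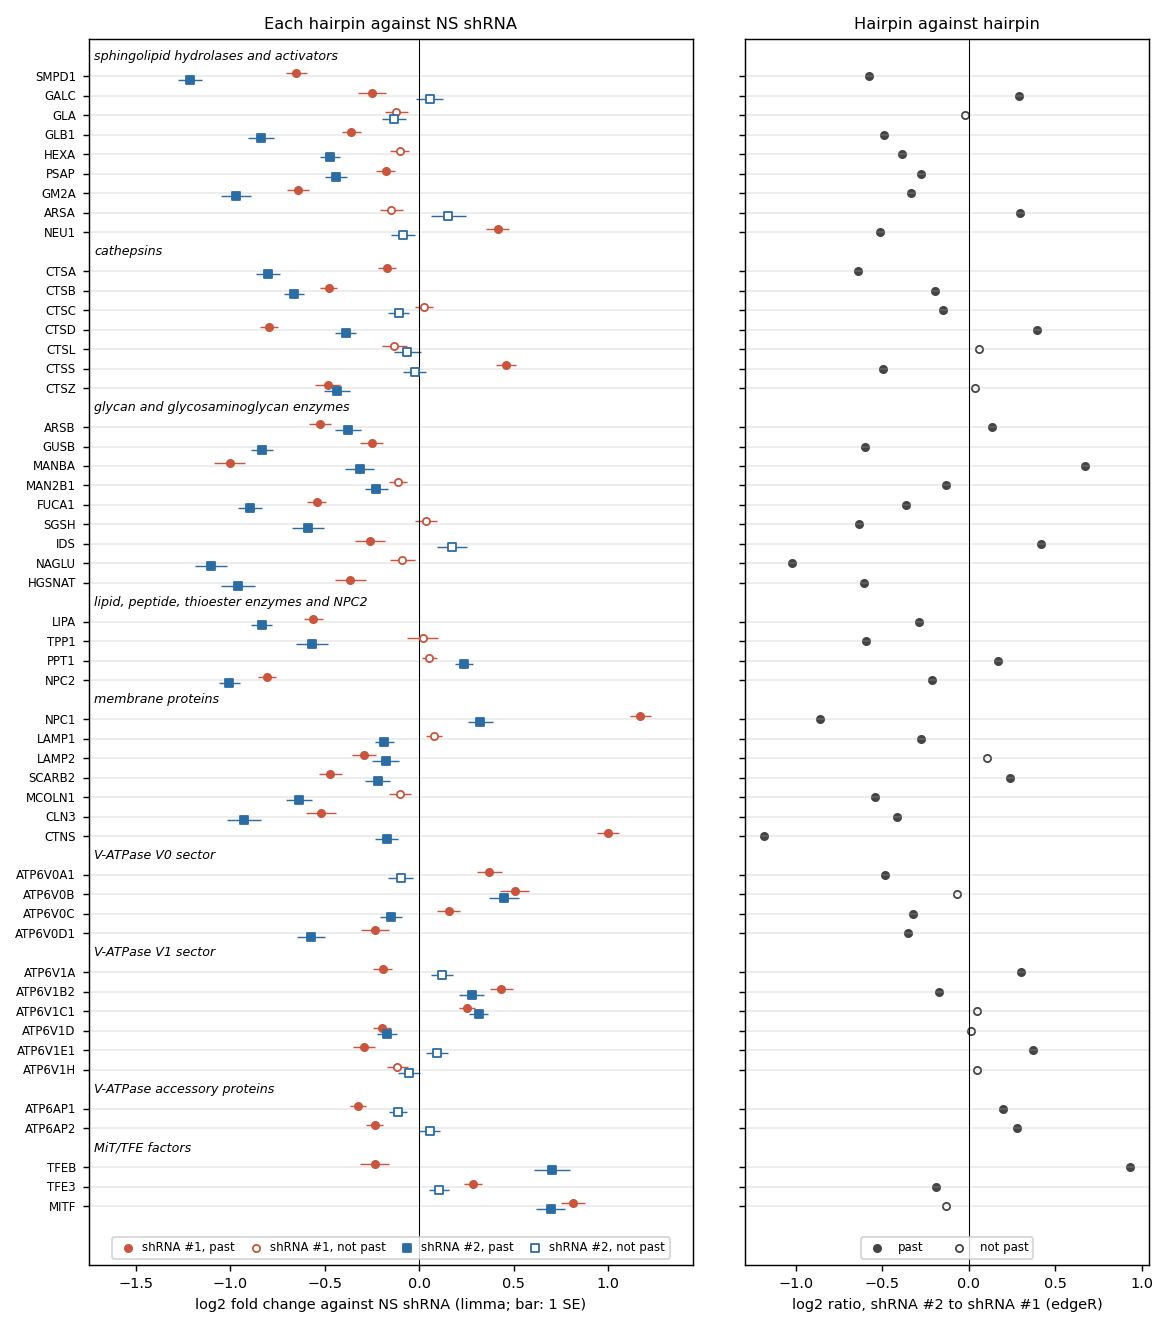
Left, log2 fold change against NS shRNA (x axis, limma, bars of 1 SE) of the 51 genes by role, with shRNA #1 as red circles and shRNA #2 as blue squares, filled where past an adjusted p of 0.05. Right, log2 ratio of shRNA #2 to shRNA #1 (edgeR). Most enzymes lie left of 0 on both sides, NPC1 and CTNS reach 1.17 and 1.00 with shRNA #1, and the ratio runs from -1.18 for CTNS to 0.93 for TFEB.

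The shRNAs were set against each other on the whole reads recovered from the normalized counts of all 9 libraries, with TMM normalization and the quasi-likelihood test of edgeR. With shRNA #2, 29 of the 51 genes (56.9%) were lower than with shRNA #1 and 13 (25.5%) were higher, where 32.5% of all 14381 genes tested were lower and 31.4% higher. As a median, the log2 ratio (shRNA #2 over shRNA #1) came to -0.19, beside -0.00 over all genes tested. Of the 20 genes that both shRNAs lowered, 13 were lower still with shRNA #2, CTSD, ARSB, MANBA and SCARB2 were less reduced with it, and CTSZ, LAMP2 and ATP6V1D did not pass. The same split was not counted for the 2891 genes that both shRNAs lowered among all genes tested. A deeper fall with shRNA #2 can therefore not be called particular to the lysosomal genes.

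The clearest differences between the shRNAs were single genes. CTNS had a log2 ratio of -1.18 (edgeR adjusted p = 1.41e-08), NAGLU of -1.02 (edgeR adjusted p = 6.49e-07) and NPC1 of -0.86 (edgeR adjusted p = 4.82e-07). TFEB (0.93, edgeR adjusted p = 2.49e-06) and MANBA (0.67, edgeR adjusted p = 2.15e-05) were higher with shRNA #2. SMPD1 (-0.58), CTSA (-0.64), SGSH (-0.63), GUSB (-0.60), HGSNAT (-0.60) and TPP1 (-0.60) were all lower with it. For MITF (-0.13, edgeR adjusted p = 0.0808) and ATP6V0B (-0.07, edgeR adjusted p = 0.466) the ratio did not pass. CTNS, ATP6V0C and TFEB, 3 of the 51 genes, were called in opposite directions against NS shRNA, as were 7.96% of the 14075 genes tested in both comparisons.

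Small ratios depended on single libraries. ARSB (log2 ratio 0.14) was no longer called without shRNA #1 replicate 1, 2 or 3 (edgeR adjusted p = 0.104, 0.128 and 0.0999) or shRNA #2 replicate 1 or 3 (0.0922 and 0.124). MAN2B1 (-0.13) was lost without shRNA #1 replicate 1, 2 or 3 (0.0714, 0.125 and 0.111) or shRNA #2 replicate 2 or 3 (0.129 and 0.146). CTSC (-0.15) was lost without shRNA #1 replicate 1 or 2 (0.0822 and 0.0813) or shRNA #2 replicate 1 (0.121). ATP6V1B2 (-0.17) was lost without shRNA #1 replicate 2 or 3 (0.0843 and 0.161) or shRNA #2 replicate 1 or 2 (0.0583 and 0.158).

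Lysosomal genes outside the 51 were read from lists of the same roles. Their counts stand beside the shares of all genes tested, which were 33.3% lower and 32.8% higher with shRNA #1, and 33.4% and 33.5% with shRNA #2. Of 22 other lysosomal enzymes, 16 were lower and 1 was higher with shRNA #1, and 16 were lower and 2 higher with shRNA #2, with 14 lower in both. The largest decreases were those of the cysteine cathepsins CTSV (log2 fold changes -1.25 and -1.91), CTSO (-1.34 and -1.14) and CTSH (-0.83 and -1.45). Of 12 other pump subunits, 5 were lower and 4 higher with shRNA #1 and 7 lower and 1 higher with shRNA #2. ATP6V0A2, a subunit found mainly at the Golgi, rose by 0.70 and 0.75. TCIRG1, the a3 form known from osteoclasts, had -1.27 and -1.24, ATP6V1C2 -0.73 and -2.31, and ATP6V0E2 -0.84 and -0.79. ATP6V1C2 was close to the minimum count, with means of 22.4 with NS shRNA and 13.2 with shRNA #1 (limma adjusted p = 0.0453). In the other table its means were 24.3 with NS shRNA and 4.03 with shRNA #2. The a subunits thus moved in different directions from each other.

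Of 15 other membrane proteins tested, 8 were higher and 2 lower with shRNA #1, and 4 were higher and 8 lower with shRNA #2. LAMP3 (1.35 and 2.25), TMEM192 (0.67 and 0.47) and OSTM1, a partner of the chloride transporter CLCN7 (0.38 and 0.19), rose with both. SLC17A5, the sialic acid exporter (-0.69 and -1.00), and TMEM175, a lysosomal potassium and proton channel (-0.56 and -0.94), fell with both. PIP4P1 was not analysed here. Of 6 genes of mannose 6-phosphate tagging and sorting, which carry the enzymes to the lysosome, 2 were lower and 1 was higher with shRNA #1. With shRNA #2, 4 of the 6 were lower and 0 higher. Over all genes tested, 33.3% were lower with shRNA #1 and 33.4% with shRNA #2, so the lower count with shRNA #1 is near that share. NAGPA, which uncovers the tag, had -0.76 and -0.89, and the sorting receptor SORT1 had -0.78 and -0.53.

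Of 12 tested genes that set where TFEB and its relatives reside, 5 were higher and 3 lower with shRNA #1, and 3 were higher and 6 lower with shRNA #2. Over all genes tested, 32.8% were higher and 33.3% lower with shRNA #1, and 33.5% and 33.4% with shRNA #2. For so few genes, the counts with shRNA #1 are near those shares. RRAGC, a Rag GTPase of mTORC1 recruitment, rose by 1.16 and 0.70, and LAMTOR3 of the Ragulator scaffold by 0.39 and 0.23. RRAGB (-0.66 and -0.51), LAMTOR5 (-0.65 and -0.65) and RRAGA (-0.75 and -0.36) fell with both. The low-read family member TFEC was not tested.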

How the data were processed

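RNA of 9 MDA-MB-231 libraries (3 per group, mapped by the labels' titles) was sequenced. Per the labels and the study's methods, the authors used Trimmomatic 0.36 for trimming, STAR 2.7.1a for alignment to hg38 and HTSeq for counting on UCSC genes (reverse strand), and normalized with DESeq2 1.28 in 1 run per ASAH1 shRNA that included the NS shRNA libraries. A further methods paragraph names RSEM, TMM and edgeR instead, and the sources differ on RNA selection, with oligo-dT beads in the labels and methods and ribosomal RNA depletion in the series' design text. The deposited values are a normalized signal, each a count divided by a size factor per library. The authors also deposited the mean, log2 fold change, standard error, statistic and p-values of their own comparisons, which were not used. In total, 0 per-sample columns were unmatched, and 28 symbols turned into dates were read from the other table.

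Every value was a whole read number (within 0.1) over 1 factor, so reads were recovered. The NS shRNA reads differed at 0 genes between tables. Chi-square per gene between replicates ran from 5.03 to 21.9, so no library repeats another. Biological variation within groups (edgeR) was 7.09%, 8.19% and 7.47% for NS shRNA, shRNA #1 and shRNA #2. Counting error is small beside it for genes with many reads. For the genes with the fewest reads, such as MANBA with 231 in a library, counting error is not small beside it.

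Tools were limma 3.58.1, DESeq2 1.42.0 and edgeR 4.0.16 in R 4.3.3, and pandas 2.3.3 in Python 3.11.15, with plots drawn by matplotlib 3.10.9. limma's two-sided test, with an intensity trend, took log2(normalized count + 1) of genes whose mean reached 10, with Benjamini-Hochberg adjustment over all genes tested at 0.05. Fold changes on this scale understate changes of low genes. The shRNAs were compared by edgeR's quasi-likelihood test on recovered reads of all 9 libraries. The tests were run on simulated data for shRNA #1 against NS shRNA (14153 genes in limma). There, 198 genes were changed and all genes had the same spread. limma recovered 91.4% of 2-fold and 86.7% of 1.5-fold changes with 4.86% false calls, and DESeq2 gave 9.09% false calls. In the real comparison 9479 of 14341 genes were called, so these rates need not hold there.

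The 51 genes and all lists were chosen with earlier results of these data known. Values per library are given for members past the threshold the same way with both shRNAs and changed by at least 0.5 on the log2 scale in both, for members called in opposite directions and changed by 0.5 in either, for TFEB, TFE3 and MITF, for ASAH1, and for genes said to be singled out after their values were seen. From each list of other lysosomal genes, up to 3 genes per direction were named, taken by mean log2 fold change over both comparisons from the genes called alike in them. Positions, transcript lengths and overlaps come from GENCODE v44 (hg38), which is not the annotation the authors counted on. As alternatives, the pseudocount was set to 0.1 or 5, the filter removed or raised to 50, the trend dropped, upper quartile scaling applied, reads tested by edgeR or DESeq2, the 9 libraries fitted together, replicate number added as a block, and every library omitted in turn.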

Additional observations from a re-analysis of the deposited data

Results flagged for a closer look

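The shRNAs had opposite calls against NS shRNA for 3 of the lysosomal genes. For each, edgeR on the recovered reads also gave the difference between the shRNAs. The 3 genes were chosen by opposite calls in the same libraries, so a difference between the shRNAs was built into the choice. The edgeR adjusted p-values are therefore no separate evidence for the opposite calls, and the log2 ratios give only the size of the difference. CTNS, higher with shRNA #1 and lower with shRNA #2, had a log2 ratio of shRNA #2 to shRNA #1 of -1.1846 (edgeR adjusted p = 1.41e-08). TFEB, lower with shRNA #1 and higher with shRNA #2, had a log2 ratio of 0.9341 (edgeR adjusted p = 2.49e-06). ATP6V0C, called weakly in each comparison, had a log2 ratio of -0.3190 (edgeR adjusted p = 0.000575). CTNS with shRNA #2, TFEB with shRNA #1 and ATP6V0C with both shRNAs lost the call against NS shRNA when single libraries were left out, as given with those genes.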

How the results depend on the processing

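Over all 51 genes, no count of lysosomal genes higher or lower changed by over 1.5 times under any alternative run, but counts within roles did. Leaving out 1 library gave 24 to 31 lower genes with shRNA #1, 25 to 28 with shRNA #2, and 17 to 22 with both. Of the called genes, 31 of 38 with shRNA #1, 30 of 36 with shRNA #2 and 37 of 42 between the shRNAs kept their call under every alternative, and 0 changed sign. Calls were also gained, by 6 of the 13 genes not called with shRNA #1, 8 of 15 with shRNA #2 and 1 of 9 between the shRNAs (MITF, upper quartile scaling, -0.21). Upper quartile scaling made GLA, NEU1, CTSC, ATP6V0A1 and ATP6AP1 lower with shRNA #2 and ARSA lower with shRNA #1. ARSA with shRNA #1 (limma adjusted p = 0.0543) also passed without the trend, with the filter at 50 and under edgeR, and ATP6V1A (0.12) and ATP6AP1 (-0.11) passed with shRNA #2 in the fit of all 9 libraries. The other gains came from leaving out 1 library and are given with the genes. Same-numbered libraries of NS shRNA and either ASAH1 shRNA did not deviate together. Correlations of their deviations ran from -0.595 to -0.141, against -0.303 to 0.525 for libraries of different number. Between the ASAH1 shRNAs the same-numbered correlations were 0.031, 0.184 and 0.470, and the others ran from -0.400 to 0.235. What these correlations come from was not tested. With the replicate block, 23 genes were lower and 10 higher with shRNA #1, 23 and 7 with shRNA #2, and 26 and 12 between the shRNAs, while 15 were lower and 5 higher with both. The block ended 5 calls with shRNA #1 (CTSA, IDS, ATP6V0C, ATP6V0D1, TFEB), 6 with shRNA #2 (LAMP1, LAMP2, SCARB2, CTNS, ATP6V0C, ATP6V1D) and 4 between the shRNAs. Within roles, membrane proteins lower with shRNA #2 went from 6 to 2 with the block, enzymes higher with shRNA #2 from 1 to 2 without any of 3 single libraries, and V-ATPase genes lower with shRNA #2 from 3 to 1 with the block and to 5 under upper quartile rescaling. Upper quartile scaling moved the median log2 fold change of all genes with shRNA #2 from 0.01 to -0.08. It turned the sign of log2 fold changes near 0 that never passed: GALC and ATP6AP2 with shRNA #2 (-0.0339 and -0.0337), and CTSL, CTSZ, ATP6V1C1, ATP6V1D and ATP6V1H between the shRNAs (-0.0179, -0.0372, -0.0262, -0.0602 and -0.0281). Leaving out 1 library did so for GALC (-0.0132 to 0.1076) and CTSS (-0.0632 to 0.0151) with shRNA #2, for SGSH (-0.0053 to 0.0680) and TPP1 (-0.0348 to 0.1032) with shRNA #1, and for GLA (-0.0479 to 0.0192), CTSZ (-0.0025 to 0.0855) and ATP6V1D (-0.0160 to 0.0419) between the shRNAs. The cause of these changes was not tested. Each of the genes had at least 231 reads in every library, and the part of depth in the calls was not tested.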
